A study of Mus musculus with 56 samples.

Results

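The comparison described here asked how far the response of homozygous titin mechanical knock-out (HOMO mKO) muscle to a virus carrying TEV protease differed, on day 21, from the response of wild-type (WT) muscle to the same virus. Of the 56 mouse tibialis anterior samples of the series, 16 were dissected on day 21 and all 16 were used, 4 in each of 4 groups. These were WT muscle given saline, WT muscle given AAV, HOMO mKO muscle given saline and HOMO mKO muscle given AAV, where AAV is an adeno-associated virus encoding GFP fused to TEV protease. All 4 groups were injected, so the saline groups carry the needle and the fluid, and both AAV groups carry the virus, the fluorescent protein and the protease. The labels give no age, sex, strain or promoter, and nothing in them ties each sample to its own animal, so p-values measure the spread between samples, part of which may be technical.

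Titin is the giant elastic protein that spans from the Z-disc to the M-band of the sarcomere, sets passive tension and anchors signalling proteins. The mechanical knock-out allele places a TEV protease site in titin, so that the protease can cut the protein in muscle that carries the allele, while WT titin has no such site. Muscle fibres draw most of the energy for sustained work from mitochondria, whose respiratory chain is built from nuclear and mitochondrial gene products, and damaged fibres are cleared by macrophages and rebuilt through embryonic forms of the contractile proteins. Titin protein, its cutting and muscle force are not part of these data, which hold transcript levels only.

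For every gene, the AAV response of a genotype was the mean of log2(normalised count + 1) in its AAV libraries minus that in its saline libraries. The quantity tested was the HOMO mKO response minus the WT response, here called the difference of responses. Genes with an adjusted p below 0.05 (limma, Benjamini-Hochberg over 13174 genes) are named called. Normalised counts are scaled to the library size, and because 0.5 reads were added before scaling, a value near 0.02 stands for 0 reads.

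Of the 13174 genes, 95 were called, which is 0.721%. The response was higher in HOMO mKO muscle for 26 genes (0.197%) and lower for 69 (0.524%), and 35 genes differed by at least 2-fold, 14 of them higher and 21 lower. All 26 of the higher genes rose with AAV in HOMO mKO muscle and all 69 of the lower genes fell there, against 27.7% and 26.9% of all genes. In WT muscle 61 of the 69 lower genes and 21 of the 26 higher genes passed the threshold in neither direction, while 7 of the lower ones also fell. Over all genes, 31.8% were called for the WT response and 54.6% for the HOMO mKO response. These responses are parts of the difference and use the same libraries, so they describe it and add no separate support. The named groups among the lower genes were parts of the respiratory chain, led by Cycs, Cox7c, Cox8b and Cox7a1, and the higher genes included Ccn2 and Ccn5 of the matricellular CCN family, the receptor ligands Gas6 and Cx3cl1, and the receptor Ntrk2.

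**Figure D1:**
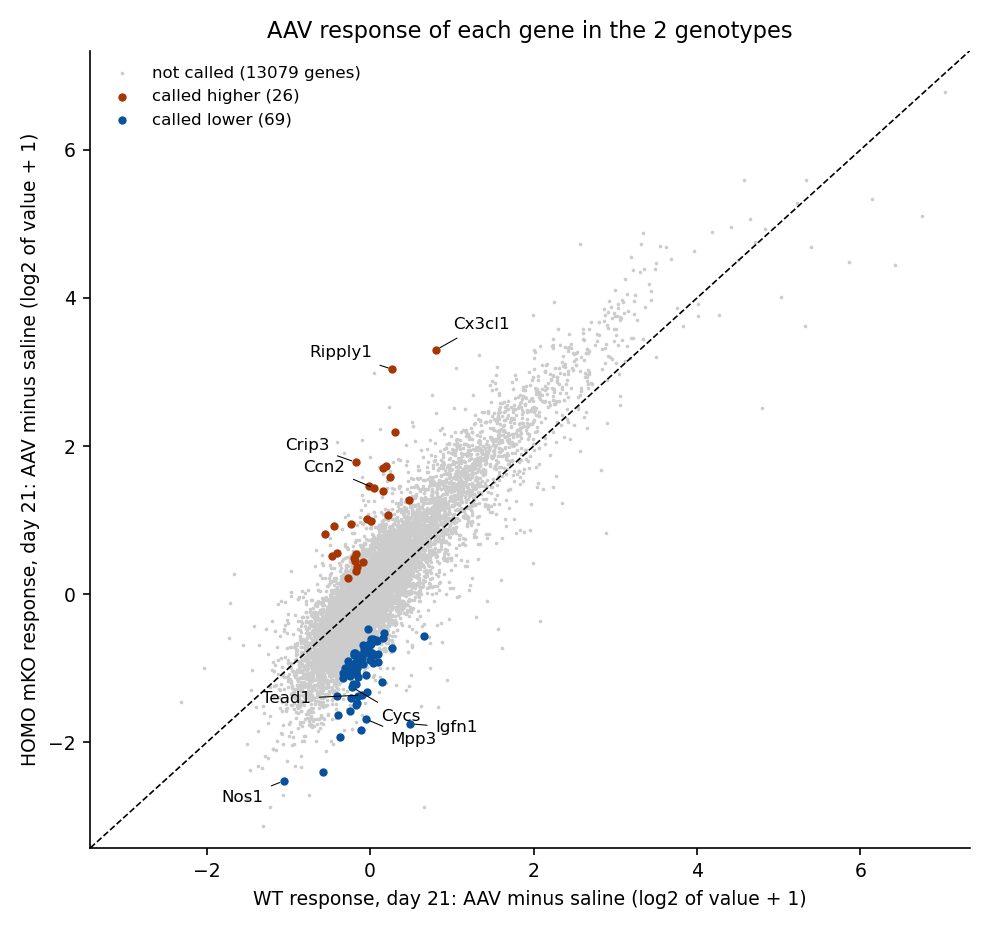
AAV response of each of 13174 genes on day 21 in WT muscle (x axis) and HOMO mKO muscle (y axis), as log2 differences of AAV minus saline, with 4 libraries a group. The dashed line marks equal responses, and the 95 called genes lie off it, 26 above in brown and 69 below in blue.

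The number of called genes moved with single libraries. Leaving out any of the 16 libraries moved it by more than 1.5 times. It was 959 without HOMO mKO AAV replicate 4, 315 without HOMO mKO AAV replicate 1, 198 without WT AAV replicate 4 and 40 without WT AAV replicate 3, and between 4 and 12 without any of the other 12 libraries. In each of the 95 genes the responses of the 4 HOMO mKO libraries did not overlap those of the 4 WT libraries, as in 5.52% of all genes in the higher and 6.5% in the lower direction. The 95 were called from the same libraries, so this describes them and adds no separate support. Each library's response subtracts a saline mean, so the spread between saline libraries does not enter it. The 95 genes kept the direction of their difference in all 30 alternative analyses in which they were tested, and 4 of them (Cycs, its near-identical copy Gm10053, Fahd1 and Tead1) were called in all 30. Cox7c and Mpp3 were called in 29, and Ripply1 in 24 of the 28 that could test it. The edgeR quasi-likelihood test on recovered reads called only 6 genes, all lower: Cycs, Gm10053, Fahd1, Tead1, Mpp3 and Cox7c. DESeq2 on the same reads called 421.

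The 16 libraries held between 19.4 and 27.2 M reads. Transgene reads numbered 2565 to 34407 in the AAV libraries and at most 6 in the saline libraries, so that every library carried or lacked the virus as labelled. In normalised counts the transgene stood at 1267, 999, 111 and 648 in the WT AAV libraries and at 127, 465, 1103 and 866 in the HOMO mKO AAV libraries. The groups overlapped over nearly their whole range, and the log2 difference was -0.17 (exact two-sided permutation p = 0.771, where 4 against 4 can reach 0.0286 at best). On principal component 1 (69.6% of the variance) HOMO mKO AAV libraries lay at 94.6, 61.2, 66.5 and 18.6 and WT AAV libraries at 15.1, -6.36, 41.5 and 49.6, against -48.4 to -34 for all saline libraries. Within its own group, HOMO mKO AAV replicate 4 and WT AAV replicate 2 were each the nearest to the saline libraries. Effective library size per read was 1.11 to 1.49 in HOMO mKO AAV, 1.01 to 1.19 in WT AAV and 0.867 to 0.92 in saline libraries.

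Skeletal fibre markers (11 of 11 in the table) marked the tissue as muscle in every group, with summed normalised counts of 149996 to 162213 in WT saline, 81801 to 120996 in WT AAV, 164172 to 174674 in HOMO mKO saline and 66678 to 123974 in HOMO mKO AAV libraries. The fibre marker sum was lower in both AAV groups than in any saline library, and the AAV groups overlapped. Macrophage markers (21 of 21) summed to 52.9 to 115 in the saline libraries, 395 to 1263 in WT AAV and 359 to 3312 in HOMO mKO AAV libraries, again with overlap between the AAV groups. In bulk tissue, fewer cells of a type and less RNA per cell cannot be told apart.

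Respiratory chain genes are described first, as the most numerous group among the called genes. In a list of 25 nuclear oxidative phosphorylation genes, the response was lower in HOMO mKO muscle for 7 and higher for 0, against 0.524% lower among all genes. DESeq2 called 20 of the 25 and edgeR 1, where they called 421 and 6 of all 13174 genes. The list's median difference of responses was -0.75, against 0.03 over all genes tested, and 24 of the 25 had an unadjusted p below 0.05. Of all 13174 genes tested, 1913 had an unadjusted p below 0.05. In 19 of the 25 every HOMO mKO library responded more strongly downward than every WT library, which held for 6.5% of all genes. The median response of the list was -0.22 in WT muscle, where 5 members fell, and -0.99 in HOMO mKO muscle, where all 25 fell. Over all genes 16.1% fell in WT and 26.9% in HOMO mKO muscle.

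**Figure D2:**
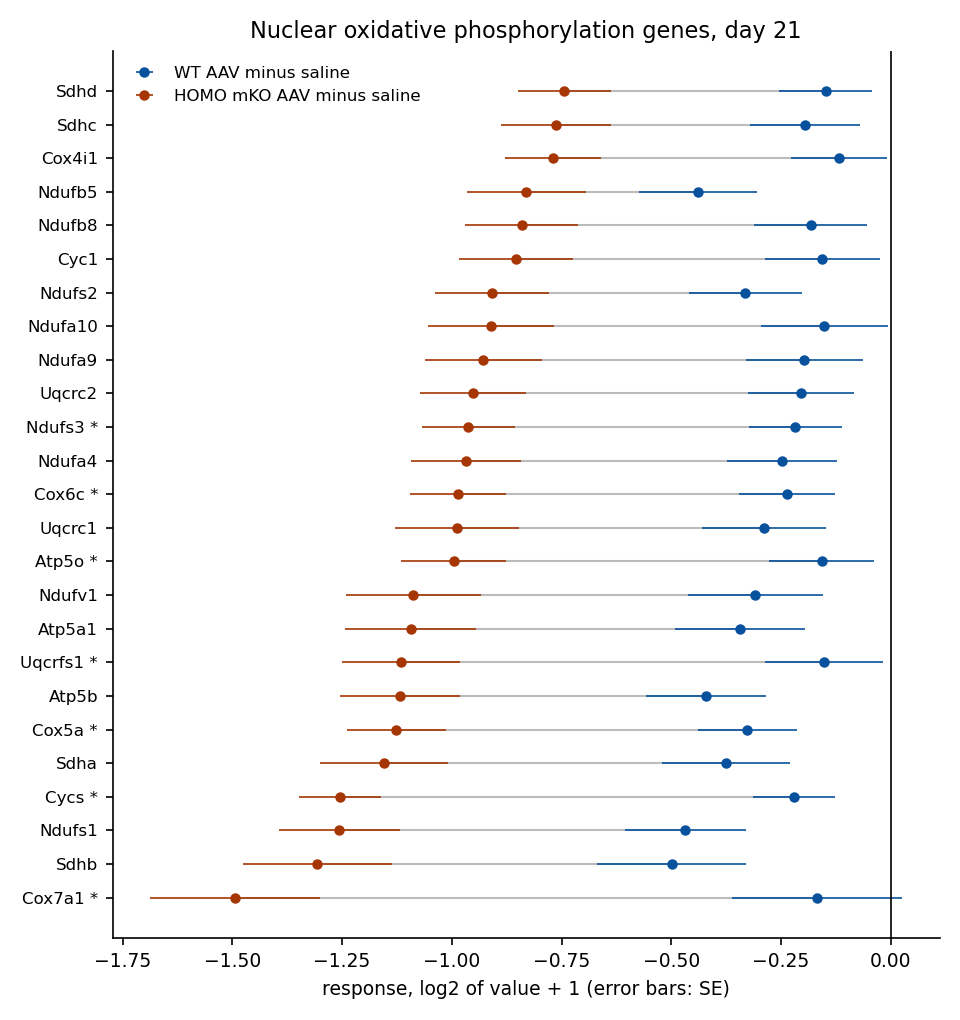
Response to AAV (log2, x axis) of the 25 nuclear oxidative phosphorylation genes in WT (blue) and HOMO mKO muscle (brown), day 21, with standard errors from limma and 4 libraries a group. An asterisk marks the 7 called genes; each brown point lies left of its blue point.

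Cytochrome c, the small electron carrier between complexes III and IV that is encoded by Cycs (chr6:50562563-50566538, GRCm38), had the smallest adjusted p. Its normalised counts were 203, 214, 204 and 186 in WT saline, 191, 194, 163 and 148 in WT AAV, 201, 188, 194 and 190 in HOMO mKO saline, and 83.6, 78.7, 71.4 and 88.7 in HOMO mKO AAV libraries. Every HOMO mKO AAV library lay below every other library, and the WT AAV group overlapped its saline group. The WT response was -0.22 (adjusted p = 0.08), the HOMO mKO response -1.26, and their difference -1.03 ± 0.13 (SE, limma adjusted p = 0.0087). Gm10053 on chromosome 19, which GENCODE tags as a retrogene and RefSeq as a cytochrome c pseudogene, moved by the same -1.03 ± 0.14 (adjusted p = 0.011), but the authors' counting may have divided reads between the copies, so these are not separate observations.

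Cytochrome c oxidase, complex IV, passes the electrons to oxygen. Cox7c (chr13:86044816-86046904), a subunit present in all tissues, was at 252, 252, 223 and 222 in WT saline, 245, 277, 220 and 207 in WT AAV, 251, 248, 230 and 228 in HOMO mKO saline, and 125, 130, 119 and 143 in HOMO mKO AAV libraries. Its mean response was -0.01 in WT muscle, and it fell by 0.89 on the log2 scale in HOMO mKO muscle, a difference of -0.88 ± 0.13 (adjusted p = 0.014). The striated muscle subunits Cox8b and Cox7a1 differed by -1.33 ± 0.22 (adjusted p = 0.025) and -1.33 ± 0.27 (adjusted p = 0.043). Cox8b stood at 39.3, 48.8, 39 and 75.6 in HOMO mKO AAV libraries against 113 to 148 in WT AAV libraries, so replicate 4 was the highest of its group and still below all WT libraries. Other called subunits of complex IV were Cox5a, Cox5b, Cox6b1 and Cox6c, with differences from -0.80 to -0.68.

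Complexes I, III and V were represented as well. At complex III, Uqcrfs1, the Rieske iron-sulfur protein, was at 157, 159, 155 and 258 in HOMO mKO AAV and at 379 to 464 in WT AAV libraries (difference -0.96 ± 0.19, adjusted p = 0.041). At complex V, the ATP synthase, Atp5g3, Atp5o and Atp5k differed by -0.87 ± 0.17, -0.84 ± 0.17 and -0.72 ± 0.15. At complex I, the NADH dehydrogenase, Ndufv2, Ndufab1, Ndufa5 and Ndufa3 were called with differences from -0.80 to -0.61, Ndufs3 differed by -0.75 ± 0.15, and its assembly factor Ndufaf1 by -0.96 ± 0.16 (adjusted p = 0.027), from 37.7 to 44.7 in WT AAV to 16.2 to 24.5 in HOMO mKO AAV libraries. No called gene encoded succinate dehydrogenase, complex II. Sdhb, at -0.81 ± 0.24, had an adjusted p of 0.122. Cox7c, Ndufaf1, Atp5g3 and Atp5k were singled out after their values were seen. Atp5o, Cox5b, Cox6b1, Cox6c, Ndufv2, Ndufab1, Ndufa5 and Ndufa3 were named as members of a set of 85 subunits. That set, described next, was assembled after values were seen.

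When all 85 respiratory chain subunits that could be recognised by symbol were taken, 21 were lower and 0 higher, with a median of -0.65. Among all genes 0.524% were lower and 0.197% higher. The set of 85 was assembled after the values were seen. Its count depended on the method. Of the 85, edgeR and voom each called 2, where each called 6 of all 13174 genes, and DESeq2 called 54, where it called 421. With all 56 samples limma called 66 and with sample weights 76, where 713 of 12935 and 1799 of 13174 genes were called. In HOMO mKO muscle 79 of the 85 fell with AAV and 2 rose, where 26.9% of all genes fell and 27.7% rose. In WT muscle 13 fell and 2 rose, where 16.1% of all genes fell and 15.7% rose. Members that did not follow were Cox6a2, a striated muscle subunit that fell in both genotypes (-0.71 in WT and -1.0 in HOMO mKO muscle, difference -0.29, adjusted p = 0.624), Atp5g2 (0.28, adjusted p = 0.623) and Cox8a (0.29, adjusted p = 0.661). The 78 mitochondrial ribosomal proteins, collected in the same way, had a median of -0.30 and 1 called member, Mrpl47. Their difference was negative for 76 of the 78, against 6141 of all 13174 genes. In 28 of the 78 every HOMO mKO library responded more strongly downward than every WT library (6.5% of all genes). Of the 78, edgeR called 0 and DESeq2 7, and limma 15 with all 56 samples and 35 with sample weights. The 13 genes encoded by the mitochondrial genome had a median of -0.85, with 0 called by limma or edgeR and 3 by DESeq2. Of the 13, 6 had an unadjusted p below 0.05, as had 1913 of all 13174 genes. In limma with all 56 samples 10 of the 13 were called, and with sample weights 12, where 713 and 1799 of all genes were. Quantile normalisation moved that median to -0.32.

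Promoters of 6 called respiratory genes are printed because these members moved together. Each sequence is from RefSeq (GRCm38.p6, minus strand), runs 5′ to 3′ from 100 bases before to 30 bases after the annotated start, and carries in capitals every match found on either strand to GCGC followed by any base and TGCGC (the core letters bound by NRF1, nuclear respiratory factor 1), AAGGTCA (bound by estrogen-related receptors, ERR), CCGGAAG (ETS factors), CTA and TAG with 4 bases of any kind between them (MEF2) or GGAATG (TEAD factors).
Atp5k: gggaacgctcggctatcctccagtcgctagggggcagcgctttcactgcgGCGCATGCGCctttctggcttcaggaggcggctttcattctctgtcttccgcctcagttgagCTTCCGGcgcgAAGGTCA
Atp5g3: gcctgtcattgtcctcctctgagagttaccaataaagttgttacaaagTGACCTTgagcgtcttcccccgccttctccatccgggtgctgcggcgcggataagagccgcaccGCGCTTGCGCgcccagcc
Atp5o: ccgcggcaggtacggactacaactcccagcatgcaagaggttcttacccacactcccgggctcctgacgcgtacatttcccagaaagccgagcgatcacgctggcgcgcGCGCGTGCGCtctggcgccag
Ndufs3: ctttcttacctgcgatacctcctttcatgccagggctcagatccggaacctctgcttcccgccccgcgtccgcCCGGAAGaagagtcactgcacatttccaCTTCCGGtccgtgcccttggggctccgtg
Cycs: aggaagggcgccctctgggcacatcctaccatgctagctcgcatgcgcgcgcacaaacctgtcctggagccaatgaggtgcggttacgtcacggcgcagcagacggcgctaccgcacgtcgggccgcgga
Cox7c: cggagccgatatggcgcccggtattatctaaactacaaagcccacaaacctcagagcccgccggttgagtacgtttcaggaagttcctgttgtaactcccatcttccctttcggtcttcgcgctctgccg
They lie at chr5:108434370-108434499, chr2:73911297-73911426, chr16:91931601-91931730, chr2:90904692-90904821, chr6:50566540-50566669 and chr13:86046766-86046895 in that order. The Atp5k window holds an NRF1 match, which reads the same on both strands, with an ETS and an ERR match; Atp5g3 holds an NRF1 and an ERR match, Atp5o an NRF1 match and Ndufs3 a pair of ETS matches. None of these letters occur in the Cycs and Cox7c windows. Over the full 300 bases, the NRF1 letters were found in 18 of 71 promoters of respiratory chain subunits (25.4%), 13 of 75 of mitochondrial ribosomal proteins (17.3%), 14 of 65 of the genes called lower (21.5%) and 2 of 26 of those called higher (7.69%), against 4.6% of all 32851 promoters. The ETS letters were in 22.5%, 34.7%, 16.9% and 11.5% of the same sets, against 8.86% of all promoters. For the ERR letters these shares were 11.3%, 5.33%, 6.15% and 3.85%, against 4.72%. The MEF2 letters were in 1.41%, 8%, 4.62% and 0% (0 of 26), against 3.69%, and the TEAD letters in 11.3%, 10.7%, 12.3% and 15.4%, against 14.7%. Of the 85 subunits, 66 had a promoter in the table, and of the 69 lower and 26 higher genes, 53 and 19. Shares are over promoters, and some genes had more than 1. The genes called lower include 21 of the respiratory chain subunits and Mrpl47, so these sets overlap and their shares are not separate observations. A match is a description of letters and no test was made on it. Of 10 regulators of mitochondrial biogenesis limma, edgeR and DESeq2 called 0, and 5 had an unadjusted p below 0.05 (1913 of all 13174 genes had). In limma 2 were called with all 56 samples and 6 with sample weights, where 713 of 12935 and 1799 of 13174 genes were. Nrf1 differed by 0.14 (adjusted p = 0.703), Gabpa by -0.12 (adjusted p = 0.641), Ppargc1a, the co-activator of mitochondrial biogenesis, by -0.82 ± 0.23 (adjusted p = 0.109), and Tfam, which packages mitochondrial DNA, by -0.58 ± 0.17 (adjusted p = 0.115).

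Respiratory genes were also set against the fibre markers. The summed nuclear oxidative phosphorylation counts were 13564 to 15179 in WT saline, 10500 to 13228 in WT AAV, 11713 to 12538 in HOMO mKO saline and 5267 to 8209 in HOMO mKO AAV libraries. As a percentage of the fibre marker sum this was 8.36 to 10.03 in WT saline and 8.68 to 14.7 in WT AAV, and 7.13 to 7.31 in HOMO mKO saline and 6.08 to 7.90 in HOMO mKO AAV libraries. Relative to fibre markers, then, the HOMO mKO AAV libraries overlapped their own saline group, and all 8 HOMO mKO libraries lay below all 8 WT libraries. With the 85 respiratory chain subunits in place of the 25 genes this separation did not hold: HOMO mKO AAV replicate 1, at 15.1, lay above WT saline replicate 4, at 14.3. Counts were not divided by transcript length, so the percentage serves to compare libraries only. For mitochondrially encoded genes it was 150 to 184 and 89.7 to 260 in the WT groups, and 122 to 141 and 82.2 to 105 in HOMO mKO saline and AAV. The part that fibre content plays in the lower response was not tested.

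Mitochondrial enzymes outside the chain were called as well, and apart from Fahd1 and Mtfp1 they were singled out after their values were seen. Fahd1 (chr17:24848892-24850364), a mitochondrial enzyme that acts on oxaloacetate and acylpyruvates, stood at 32.5, 33.7, 31.3 and 33.2 in WT saline, 44.4, 37.2, 30.2 and 34.2 in WT AAV, 28.9, 36.1, 26.8 and 32.1 in HOMO mKO saline, and 10.7, 14.2, 11.5 and 15.9 in HOMO mKO AAV libraries. The HOMO mKO AAV libraries did not overlap any other group, and the difference was -1.33 ± 0.19 (adjusted p = 0.011). Pdhb and Dld, subunits of the pyruvate dehydrogenase complex, differed by -0.76 ± 0.16 and -0.81 ± 0.18. Etfa, which hands electrons from fatty acid oxidation to the chain, differed by -0.87 ± 0.18, and Oxct1, which opens ketone body use, by -0.97 ± 0.19. Mtfp1, a protein of mitochondrial fission, and Mterf2, of the mitochondrial transcription termination family, differed by -1.17 ± 0.26 and -1.04 ± 0.21. Among 21 genes of fatty acid oxidation and lipid handling the median was -0.73 and among 20 of glycolysis and glycogen -0.59. In either list 0 were called by limma or edgeR, and 4 and 0 by DESeq2. An unadjusted p below 0.05 was found for 11 and 10, and for 1913 of all 13174 genes. With all 56 samples 8 and 5 were called, where 713 of all 12935 genes were. With sample weights 16 and 11 were called, where 1799 of all 13174 genes were. DESeq2 called 421 of all genes. Phyh, the peroxisomal enzyme that starts phytanic acid breakdown, fell to 39.1 to 75.9 in HOMO mKO AAV from 148 to 168 in HOMO mKO saline libraries (difference -1.24 ± 0.22, adjusted p = 0.035).

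**Figure D3:**
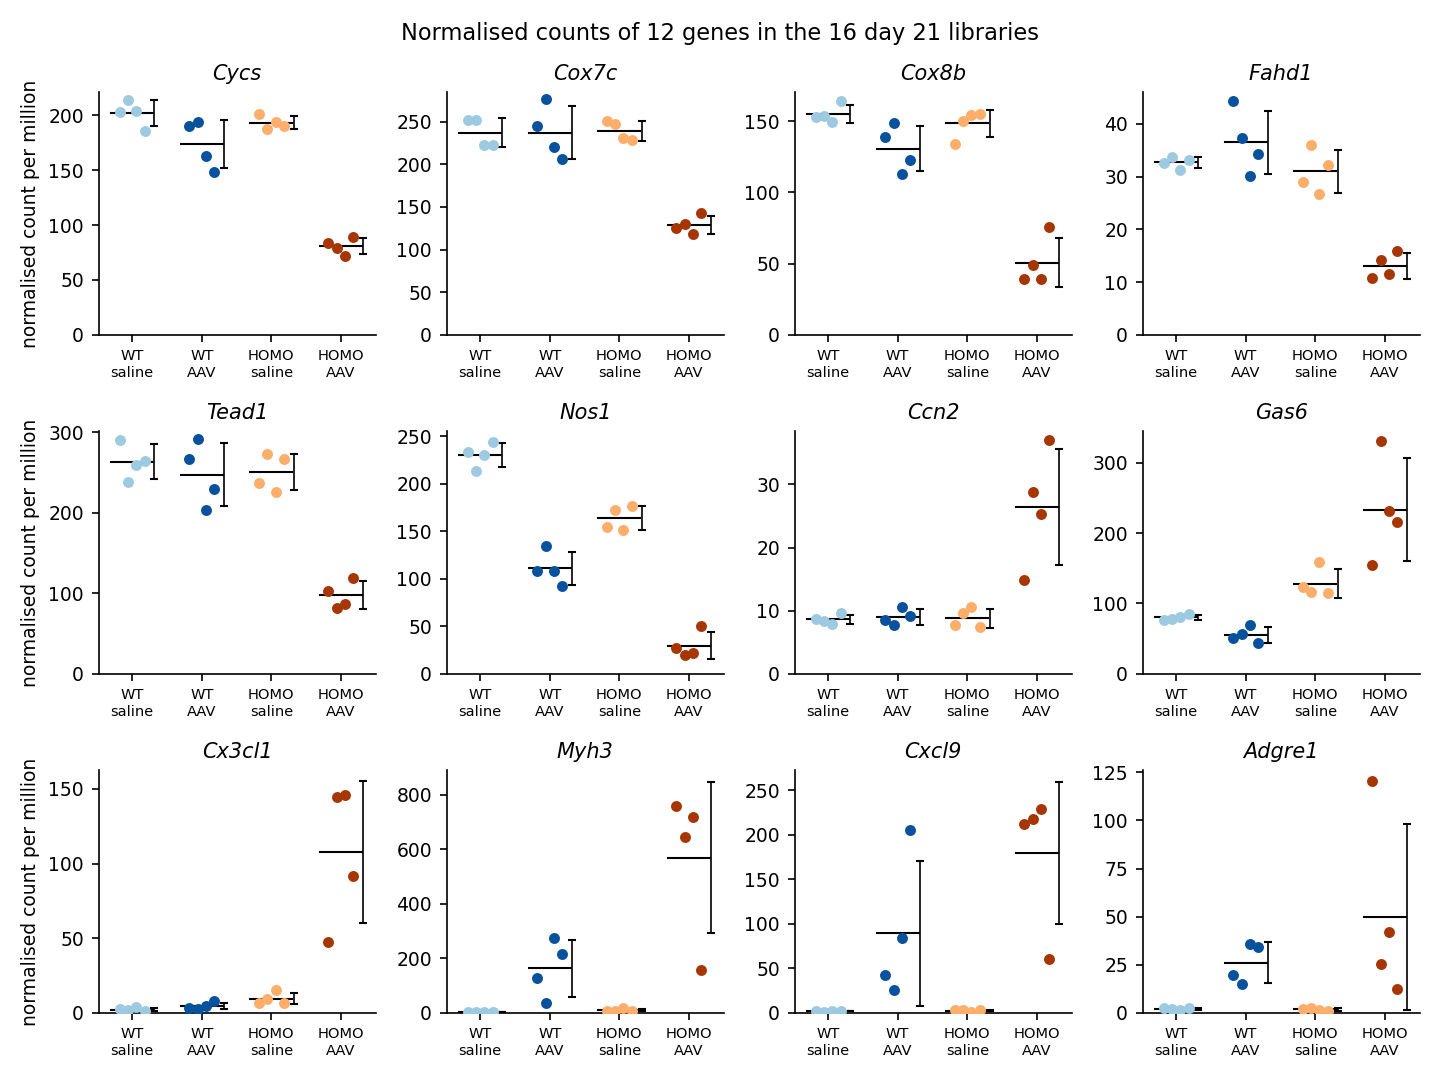
Normalised counts (y axis, from 0) of 12 genes in the 16 day 21 libraries, 1 point per library, with group mean (line) and SD (bar). Cycs, Cox7c, Fahd1, Tead1 and Nos1 are lowest in all 4 HOMO mKO AAV libraries and Ccn2 highest, while Myh3, Cxcl9 and Adgre1 rise in both AAV groups.

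Tead1 encodes a DNA-binding partner of the co-activators YAP and TAZ. On chromosome 7 (112679318 to 112906807), it was at 291, 239, 260 and 264 in WT saline, 267, 291, 203 and 229 in WT AAV, 237, 273, 226 and 267 in HOMO mKO saline, and 103, 82.1, 86.2 and 120 in HOMO mKO AAV libraries. All HOMO mKO AAV libraries were below all others, and the WT groups overlapped (WT response -0.10, HOMO mKO response -1.36, difference -1.26 ± 0.18, adjusted p = 0.011). The other TEAD genes and their partners were not called: Tead3 differed by 0.51 (adjusted p = 0.305), Tead2 by 0.22, Tead4 by 0.08, Yap1 by -0.13 and Wwtr1, which encodes TAZ, by -0.24.

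The CCN genes encode secreted matricellular proteins, and Ccn1 and Ccn2 are textbook targets of YAP, TAZ and TEAD factors as well as of other pathways. Ccn2 was at 8.62, 8.37, 7.88 and 9.59 in WT saline, 8.51, 7.74, 10.6 and 9.18 in WT AAV, 7.66, 9.66, 10.5 and 7.35 in HOMO mKO saline, and 14.8, 28.8, 25.2 and 37 in HOMO mKO AAV libraries. It rose by 1.43 in HOMO mKO muscle (adjusted p = 4.1e-05), the WT response was 0.05, and their difference was 1.38 ± 0.28 (adjusted p = 0.043), and HOMO mKO AAV replicate 1 was the nearest to the other groups. Ccn5, at lower counts of 2.43 to 5.07 in HOMO mKO AAV and 0.198 to 1.40 in WT AAV libraries, differed by 1.48 ± 0.31 (adjusted p = 0.043). Ccn1 differed by the same 1.48 but with a wider error of 0.43 (adjusted p = 0.114). Ccn3 and Ccn4 differed by 0.17 and -0.25 and were not called. The CCN and TEAD sets were drawn up after values had been seen.

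Among the other genes whose response was higher in HOMO mKO muscle, Gas6, the ligand of the receptor kinases Tyro3, Axl and Mertk, was at 77, 78.6, 80.2 and 84.8 in WT saline and at 50.7, 56.6, 69.8 and 44.1 in WT AAV libraries. In HOMO mKO muscle it was at 123, 116, 158 and 115 in saline and at 155, 331, 232 and 215 in AAV libraries. Gas6 fell with AAV in WT muscle (-0.55, adjusted p = 0.032) and rose in HOMO mKO muscle (0.82, adjusted p = 0.0015), a difference of 1.36 ± 0.26 (adjusted p = 0.038). Cx3cl1, the chemokine fractalkine, was at 2.71 to 7.66 in WT AAV and at 47.3, 145, 146 and 91.3 in HOMO mKO AAV libraries. Its saline groups differed too, at 1.01 to 3.68 in WT and 6.82 to 15.2 in HOMO mKO libraries (1.75, adjusted p = 0.018), and the difference of responses was 2.49 ± 0.52 (adjusted p = 0.043). Cxcl14, another chemokine, was at 72.5 to 97.2 in HOMO mKO AAV and 31.3 to 66.7 in WT AAV libraries, a difference of 1.34 ± 0.29 (adjusted p = 0.045).

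Ntrk2, the receptor for brain-derived neurotrophic factor, was at 1.71, 2.62, 3.78 and 3.56 in WT AAV and at 5.91, 9.66, 8.83 and 5.87 in HOMO mKO AAV libraries (1.37 ± 0.27, adjusted p = 0.041). Ggt5, an enzyme of glutathione and leukotriene metabolism, and Rgs12, a regulator of G protein signalling, both differed by 1.54, with errors of 0.25 and 0.31. Cd151, an integrin-binding tetraspanin, fell in WT muscle (-0.47, adjusted p = 0.026) and rose in HOMO mKO muscle (0.52, adjusted p = 0.008), and Id3, an inhibitor of basic helix-loop-helix factors, differed by 1.05 ± 0.19. Ltbp1, which holds latent TGF-beta in the matrix and was singled out after its values were seen, differed by 0.85 ± 0.16. The response was also higher for the phosphatase gene Ppm1f (1.19 ± 0.26), the actin-associated Rai14 (1.23 ± 0.25), the zinc finger gene Zc2hc1a (1.88 ± 0.37) and the LIM domain gene Crip3 (1.96 ± 0.35).

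Ripply1, a transcriptional repressor known from somite patterning, gave the widest difference on this scale, 2.77 ± 0.43 (adjusted p = 0.014). It had no reads in any WT saline library and values of 0.0221 to 0.372 in WT AAV libraries, against 3.16, 12, 14.1 and 5.83 in HOMO mKO AAV libraries. Because 3 of the 4 groups sat close to 0 reads, its size depends on the pseudocount: the difference was 3.91 with a pseudocount of 0.25, and the edgeR quasi-likelihood test did not call it (adjusted p = 0.92).

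Cebpd, a transcription factor of the acute phase, is a case where the saline groups carried the difference. It was at 6.71 to 8.79 in WT saline, 6.78 to 9.25 in WT AAV, 2.55 to 4.13 in HOMO mKO saline and 6.59 to 8.50 in HOMO mKO AAV libraries. The AAV groups were 0.03 apart (adjusted p = 0.92), while HOMO mKO saline lay below WT saline (-0.96, adjusted p = 0.0012), and the difference of responses was 0.99 ± 0.20 (adjusted p = 0.042). As a description from shared libraries, 25 of the 26 higher genes were also called higher in HOMO mKO AAV than in WT AAV muscle (8.29% of all genes were), and of the 69 lower genes 66 were called lower (9.91% of all genes were). The exceptions besides Cebpd were Armcx4, Cast and Gm11266, named here after their values were seen, each higher in HOMO mKO saline than in WT saline muscle.

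Nos1, neuronal nitric oxide synthase, is held at the membrane by the dystrophin complex. It was at 234, 213, 230 and 244 in WT saline, 109, 134, 109 and 92.6 in WT AAV, 154, 172, 151 and 177 in HOMO mKO saline, and 26.8, 19.3, 22 and 50.5 in HOMO mKO AAV libraries. Both genotypes lost Nos1 with AAV and HOMO mKO muscle lost more (-1.06 and -2.52, difference -1.46 ± 0.29, adjusted p = 0.041). None of the other 14 members of the dystrophin complex list was called. Of all 15, 4 fell and 1 rose with AAV in HOMO mKO muscle, where 26.9% of all genes fell and 27.7% rose. Dmd, which encodes dystrophin, differed by -0.08 and Utrn, its paralogue utrophin, by 0.46 (adjusted p = 0.251).

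Mpp3 (chr11:101999652-102028461), a membrane scaffold of the MAGUK family, was at 17.6, 17.2, 24.1 and 20 in WT AAV and at 5.35, 2.70, 3.99 and 5.64 in HOMO mKO AAV libraries, with saline values of 13.9 to 26.4 over both genotypes. The HOMO mKO AAV libraries lay below all others while WT AAV lay within the saline range, and the difference was -1.63 ± 0.25 (adjusted p = 0.014). Atp1b1, the beta subunit of the sodium pump, and Fxyd6, a modulator of that pump, differed by -1.56 ± 0.33 and -1.28 ± 0.25. Grb14, an adaptor that restrains the insulin receptor, differed by -1.72 ± 0.37, and Nexn, an actin-binding protein of the Z-disc named after its values were seen, by -0.90 ± 0.17. Igfn1, a muscle protein of immunoglobulin and fibronectin domains, had the most negative difference of the 95, -2.24 ± 0.49 (adjusted p = 0.048), with 8.89, 10.7, 10.6 and 35.9 in HOMO mKO AAV against 54.8 to 91.1 in WT AAV libraries; replicate 4 lay apart from the rest. The same replicate was the highest of its group for Neu2, a sialidase, which stood at 4.83, 4.96, 5.18 and 11.0 (-1.31 ± 0.28). Efcab6, of the EF-hand family, differed by -1.82 ± 0.33 and Fer1l6, of the ferlin family, by -1.22 ± 0.25.

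Interferon and antigen presentation genes rose in both genotypes, and limma called 0 of them for a difference. All 25 type I interferon genes rose in HOMO mKO muscle and 24 rose in WT muscle (27.7% and 15.7% of all genes rose), with a median difference of responses of 0.21. In this list limma (also with all 56 samples or sample weights), edgeR, DESeq2 and voom called 0 members for the difference, and 0 had an unadjusted p below 0.05 in limma. Cxcl9, an interferon-gamma induced chemokine, was at 42.3, 25.6, 84.1 and 206 in WT AAV and 211, 218, 229 and 60.3 in HOMO mKO AAV libraries, against 1.14 to 3.42 in saline libraries. The AAV groups overlapped. It rose by 4.58 in WT and 5.59 in HOMO mKO muscle (difference 1.01, interval -0.52 to 2.54, adjusted p = 0.551). All 18 antigen presentation genes rose in each genotype, with a median difference of 0.57. Of the 18, 0 were called by limma, edgeR, DESeq2 or voom or had an unadjusted p below 0.05. With sample weights limma called 5, where it called 1799 of all 13174 genes. The interval for Cxcl9 is wide, and does not show that the genotypes respond alike.

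Markers of macrophages and lymphocytes rose in both genotypes. Adgre1, which encodes the macrophage protein F4/80, was at 19.6, 14.8, 35.9 and 34.2 in WT AAV and at 120, 25.6, 41.8 and 12.1 in HOMO mKO AAV libraries, so the highest and the lowest of the 8 were both HOMO mKO (difference 0.69, interval -0.74 to 2.12, adjusted p = 0.668). Of 21 macrophage markers 19 rose in WT and 20 in HOMO mKO muscle, and of 15 T and natural killer cell markers tested 14 and 15. Over all genes 15.7% rose in WT and 27.7% in HOMO mKO muscle. The macrophage list had a median difference of 0.43, positive for 20 of the 21, against 7033 of all 13174 genes. In limma 0 of the 21 were called or had an unadjusted p below 0.05. The lymphocyte list had a median difference of 1.03, with 0 called by limma, edgeR, DESeq2 or voom. Of its 15 members, 5 had an unadjusted p below 0.05, as had 1913 of all 13174 genes. With all 56 samples limma called 4 of the 9 members tested in that fit, where it called 713 of all 12935 genes. With sample weights it called 12 of the 15, where it called 1799 of all 13174 genes. Its summed level was 1.56 to 3.25 in saline, 26.0 to 135 in WT AAV and 66.0 to 254 in HOMO mKO AAV libraries. Cd8a, of cytotoxic T cells, was at 1.35, 1.12, 9.53 and 13.7 in WT AAV and at 32.4, 15.4, 22.8 and 6.92 in HOMO mKO AAV libraries, which overlap (difference 1.70, interval 0.10 to 3.30, adjusted p = 0.314). The immunoglobulin light chain constant gene Igkc was at 58.8 to 602 in WT AAV and 23.4 to 176 in HOMO mKO AAV libraries (-1.65, adjusted p = 0.412). It is 1 of 13 B and plasma cell markers tested, which did not share a direction. Their difference was positive for 7 and negative for 6, with a median of 0.06, and limma called 0 of the 13. The part that immune cell content plays in the called genes was not tested.

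**Figure D4:**
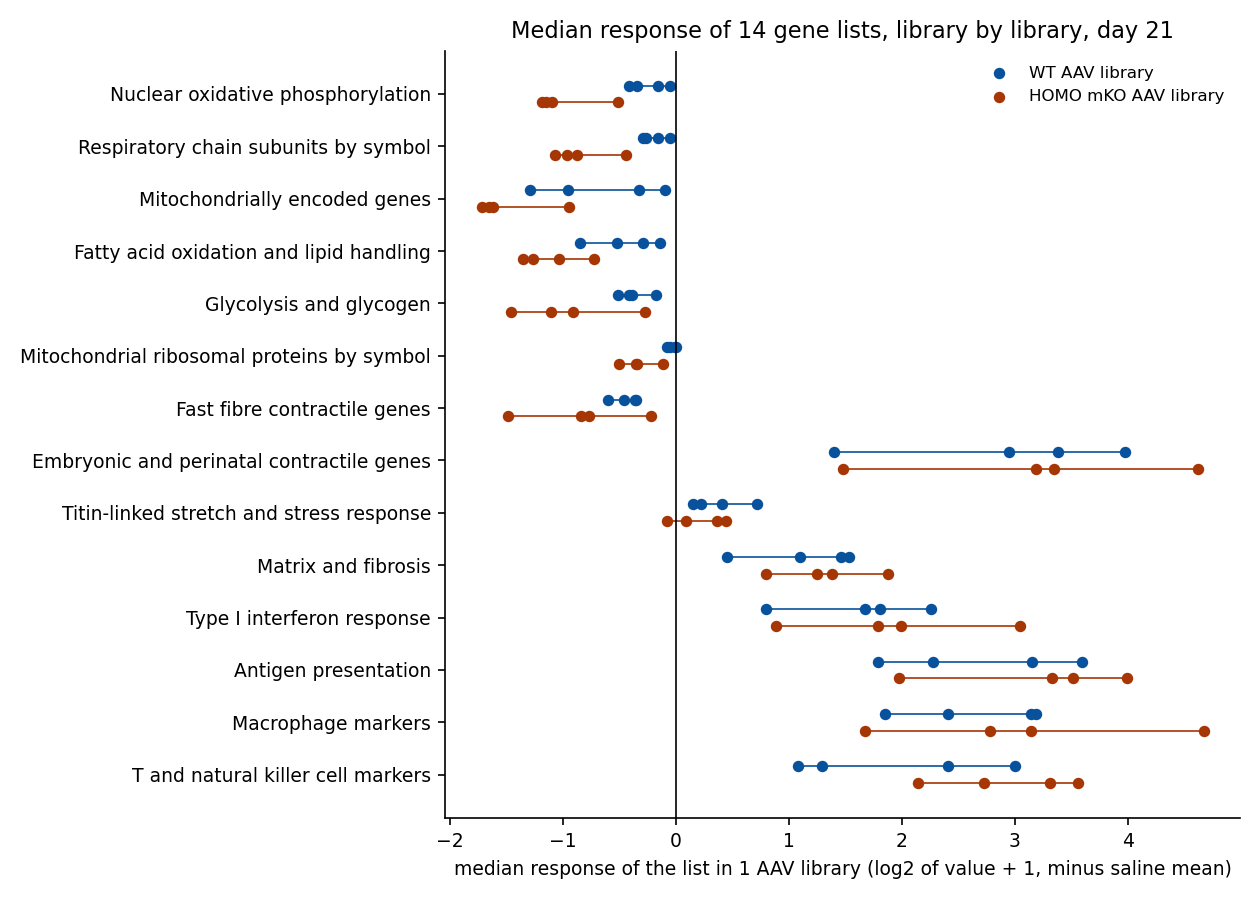
Median response (log2, x axis) of 14 gene lists in each AAV library on day 21, 4 WT libraries in blue and 4 HOMO mKO libraries in brown, with lines joining the range. The genotypes separate for both respiratory chain lists and the mitochondrial ribosomal proteins, and overlap for the interferon, antigen, macrophage, lymphocyte, matrix and embryonic lists.

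Genes of fibre remodelling responded in both genotypes. Embryonic myosin, encoded by Myh3, was at 129, 35.7, 273 and 215 in WT AAV and at 758, 645, 718 and 158 in HOMO mKO AAV libraries, with 2.07 to 2.36 in WT saline and 7.00 to 15.9 in HOMO mKO saline libraries. It rose by 5.33 in WT and 5.60 in HOMO mKO muscle, and the difference of 0.27 had an interval from -1.36 to 1.89 (adjusted p = 0.896). Perinatal myosin Myh8 differed by -1.02 (adjusted p = 0.701), and Sln, which encodes the calcium pump regulator sarcolipin, by 2.16 ± 0.69 (adjusted p = 0.143). Of 10 embryonic and perinatal contractile genes 9 rose in each genotype, where 15.7% of all genes rose in WT and 27.7% in HOMO mKO muscle. For a difference, limma, edgeR and DESeq2 called 0 of the 10, and 1 had an unadjusted p below 0.05. With all 56 samples or sample weights limma called 1, where 713 of 12935 and 1799 of 13174 genes were called. Col1a1, the main fibrillar collagen, rose by 1.94 in WT and 1.80 in HOMO mKO muscle (difference -0.13, adjusted p = 0.91), and among 26 matrix genes 22 rose in each genotype, with Ccn2 the single called difference.

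Stretch-linked genes that bind titin or sense load differed between the saline groups without the virus. Of 20 genes in that list 14 were higher in HOMO mKO saline than in WT saline muscle (median 1.08), where 1.72% of all genes were called higher. Over all genes 259 were called in either direction (1.97%), a count that fell to between 159 and 171 without HOMO mKO saline replicate 1 or 2 or WT saline replicate 2 or 3. Csrp3, a Z-disc LIM protein, was at 17.5 to 20.7 in WT saline and at 822, 269, 413 and 181 in HOMO mKO saline libraries (4.14, adjusted p = 4.6e-05). Ankrd2 and Ankrd1, ankyrin repeat proteins bound to the titin spring, were 3.07 and 3.15 higher (adjusted p = 0.0009 and 0.007). With AAV, Ankrd1 rose in both genotypes, to 16.6 to 163 in WT and to 315, 1646, 1657 and 531 in HOMO mKO libraries, by 3.43 and 4.10 (difference 0.66, interval -1.08 to 2.41, adjusted p = 0.739). Ankrd2 responses differed by -1.38 ± 0.62 and those of Csrp3 by -0.93 ± 0.61, and neither was called (adjusted p = 0.319 and 0.507). Ttn itself was at 6953 to 8840 in WT AAV and 5704 to 10560 in HOMO mKO AAV libraries, with responses of -0.53 (adjusted p = 0.057) and -0.87 (adjusted p = 0.0022). The difference was -0.34 (interval -0.95 to 0.28, adjusted p = 0.626) and had the opposite sign under quantile normalisation. The atrophy ligase genes Trim63 and Fbxo32 differed by -0.39 and -0.51 and the cell cycle inhibitor gene Cdkn1a by 0.22, none called.

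The same difference of responses could be measured on days 3 and 7 in other samples, 16 on each day, in a fit of all 56 libraries that shares an estimate of the spread. Of the 69 genes lower on day 21, 31 were called lower and 0 higher on day 3, and 32 lower and 1 higher on day 7, where 4.38% and 11% of all genes tested were called lower. Of the 25 higher genes that were tested, 3 were higher and 1 lower on day 3, and 10 were higher and 0 lower on day 7, against 5.38% and 9.27% of all genes called higher. Nuclear oxidative phosphorylation genes were called lower in 22 of 25 on day 3 and 20 of 25 on day 7, with medians of -0.51 and -0.64. In this same fit of 56 libraries, 24 of the 25 were called on day 21, with a median of -0.75. It called 713 of all 12935 genes on day 21. The 7 of 25 given above came from the fit of the 16 day 21 libraries and is not comparable with these counts. Cycs differed by -0.69 and -0.67 on these days (adjusted p = 0.0016 and 0.00096) and Nos1 by -1.30 and -1.92. Tead1 differed by -0.47 (adjusted p = 0.07) and -1.11 (adjusted p = 2.6e-05).

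**Figure D5:**
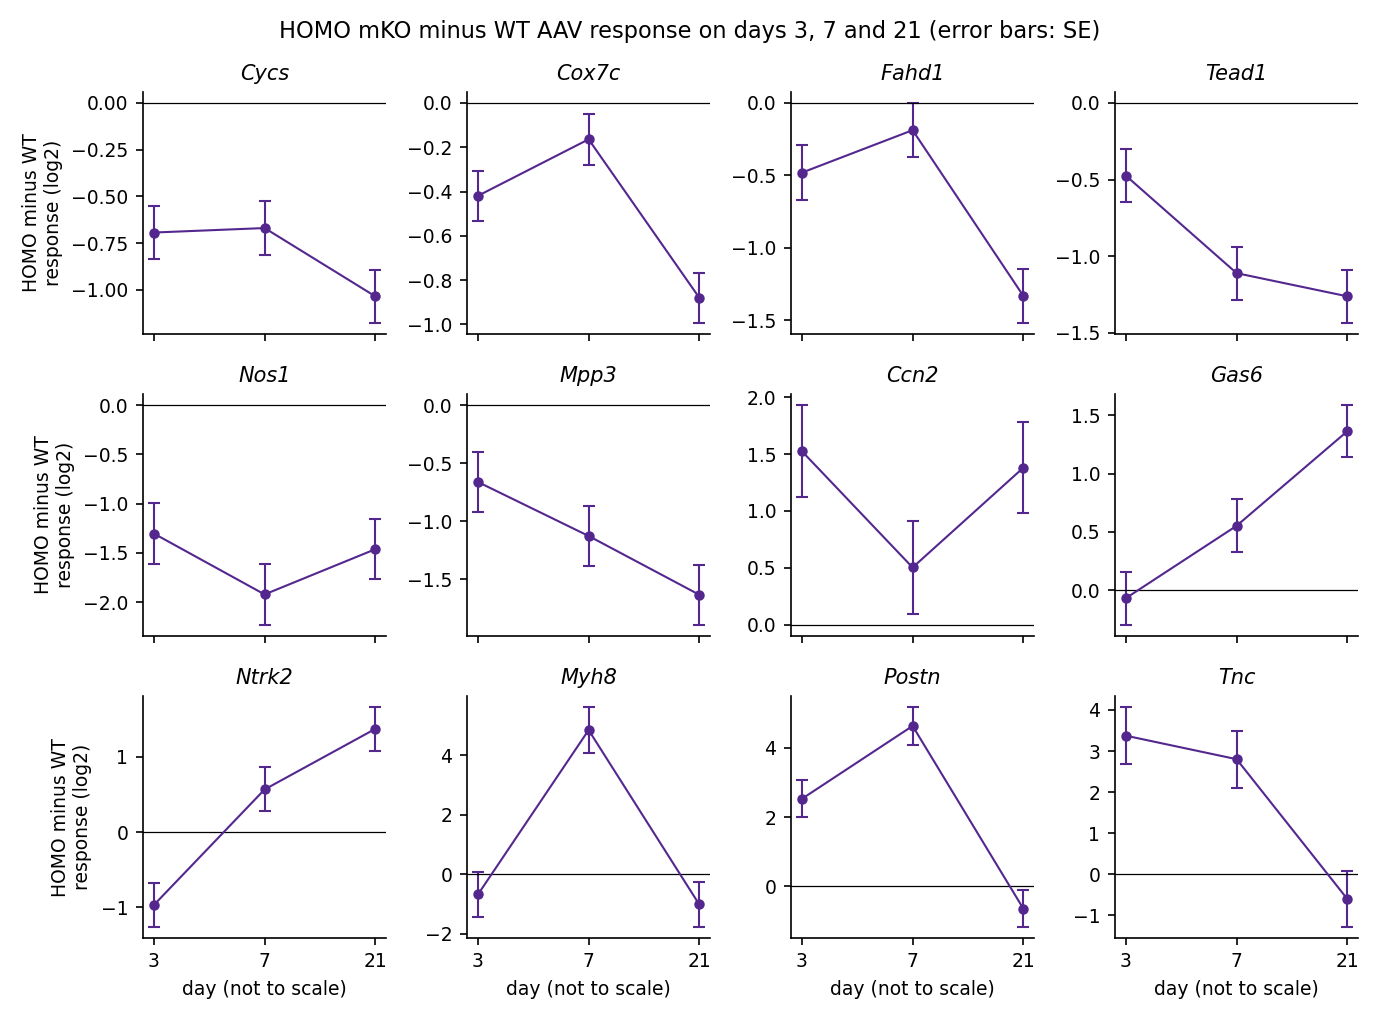
HOMO mKO minus WT response to AAV (log2, y axis, scaled per gene) on days 3, 7 and 21 (x axis, not to scale) for 12 genes, with standard errors from the fit of 56 libraries. Cycs, Tead1, Nos1 and Mpp3 are below 0 on all 3 days, and Myh8, Postn and Tnc are above 0 on day 7 and below 0 on day 21, where none is called.

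Some genes changed their difference between days, tested as day 21 minus an earlier day. Against day 7, 140 of 12935 genes were called (1.08%), 24 higher and 116 lower on day 21 (0.897%), and of the 69 genes lower on day 21, 5 were among the latter. Fahd1 and Cox7c were lower on day 21 than on day 7, by -1.14 (adjusted p = 0.019) and -0.72 (adjusted p = 0.015), and on day 7 neither was called (adjusted p = 0.51 and 0.32). The 69 genes, Fahd1 and Cox7c among them, were picked for a low difference on day 21, and the change reuses those libraries. A negative change was thus favoured in advance, and it was found for 66 of the 69 (47.5% of all genes). These values describe the genes and add no separate support. Myh8, at a difference of 4.84 on day 7 and -1.02 on day 21, changed by -5.86 (adjusted p = 0.0027), and Postn, a matrix protein of repair, by -5.27 from 4.63 on day 7. On day 7 itself the response was higher in HOMO mKO muscle for 21 of 26 matrix genes and 18 of 21 macrophage markers, against 9.27% of all genes. The 140 moved by over 1.5 times without 10 of the 32 libraries. It was 367 without HOMO mKO AAV replicate 1 and 332 without WT AAV replicate 2 of day 21. It was 71 without WT AAV replicate 4, and 89 and 76 without WT saline replicates 1 and 4, of day 21. From day 7, it was 65 without HOMO mKO saline replicate 2, 88 and 92 without WT AAV replicates 1 and 3, and 77 and 90 without WT saline replicates 1 and 3.

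Against day 3, 46 genes were called (0.356%), among them Ntrk2, whose difference went from -0.97 on day 3 (adjusted p = 0.028) to 1.37 on day 21, a change of 2.34 (adjusted p = 0.0031). Gas6 was also among the 6 of the 25 genes higher on day 21 whose difference was larger than on day 3, by 1.43 (adjusted p = 0.035). Over all genes 0.139% were called for a larger difference. The 25, Ntrk2 and Gas6 among them, were picked for a high difference on day 21, and the change reuses those libraries. A positive change was thus favoured in advance, and it was found for 22 of the 25 (48.8% of all genes). The count of 46 moved by over 1.5 times without 25 of the 32 libraries, from 11 without HOMO mKO AAV replicate 2 to 238 without HOMO mKO AAV replicate 1 of day 21. The 7 that moved it less were HOMO mKO AAV replicates 1 and 2, HOMO mKO saline replicate 3 and WT AAV replicate 5 of day 3, and WT AAV replicates 2, 3 and 4 of day 21.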

How the data were processed

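RNA from tibialis anterior (TRI reagent, directional NEBNext Ultra II libraries) was sequenced, per the labels' protocols. FastQC, Bowtie, RSEM and limma, with the GRCm38 (mm10) genome, are listed in the submitters' processing notes; versions, the strand setting of counting and read filters are not given in the sources used here. The deposited signal values are normalised counts. Adding 0.5 to whole reads and scaling by an effective library size (CPM scale) gives each value, within 0.02 reads. They are not divided by transcript length. Values were taken as log2(value + 1), and genes with a mean of at least 1 over the 16 day 21 libraries were fitted by group with limma 3.58.1 (trend, 12 residual degrees of freedom, R 4.3.3) and Benjamini-Hochberg adjustment over 13174 genes. The days were compared in a fit of 56 libraries and 12935 genes. Intervals are 95%. The script was tested on simulated counts, drawn independently for each gene and library. That simulation held no shift shared by the genes of a library, so it cannot speak to the effect of single libraries. Alternatives were other pseudocounts, filters, scalings, sample weights, replicate blocks, a transgene covariate, each library left out, and edgeR 4.0.16, DESeq2 1.42.0 and voom on recovered reads. Members, lists and tests were chosen with earlier results of these data known. Genes were named as up to 15 per direction by size among called genes with a group mean of at least 5 and responses that did not overlap, predicted genes passed over. To these were added a short set of muscle and immune genes and up to 4 members per list by p. Also open to naming were list members with the largest responses and genes that changed between days. So were members of the added CCN, TEAD, mitochondrial biogenesis, respiratory subunit and mitochondrial ribosomal sets. Other genes outside this are marked in the text. Of 44 written lists, 39 had no called member. The others were the nuclear oxidative phosphorylation, matrix, dystrophin, chemokine and insulin-like growth factor lists.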

Additional observations from a re-analysis of the deposited data

Results flagged for a closer look

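In groups of 4 libraries, the gap from the most extreme value to its neighbour was compared with the group's range by Dixon's criterion. Of 92 such groups 5 stood out, and chance flags about 1 in 20. HOMO mKO AAV libraries gave 3 of them, each with replicate 4 as the highest value: Igfn1 at 35.9, Mtfp1 at 21.4 and Neu2 at 11.0 normalised counts. In WT AAV libraries, Cxcl14 was highest in replicate 4 at 66.7 and Ankrd2 in replicate 1 at 95.1.

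The difference of responses changed between days 7 and 21 by a limma test of the change itself for the following genes. It became more negative, on the log2 scale, for Myh8 (-5.86), Postn (-5.27), Mt3 (-4.21), the atrial and embryonic myosin light chain Myl4 (-3.72) and Serpinb1a (-3.65). It became more positive for Itgb4, an integrin of hemidesmosomes (1.70), Arhgap27 (1.45), the nuclear envelope protein gene Syne2 (1.22), Inpp1 (1.17) and Notch3, a receptor of mural cells (1.14).

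Between days 3 and 21, it became more negative for the matrix glycoprotein gene Tnc (-3.97), the metallothionein gene Mt2 (-3.69), the metalloproteinase inhibitor gene Timp1 (-3.48), Postn (-3.16) and Serpinb1a (-3.10). It became more positive for Ntrk2 (2.34), Dupd1 (2.31), Igfbp3 (2.28), Ablim1 (1.96) and Olfml2a (1.77).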

How the results depend on the processing

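The count of 95 genes with a different response was 713 in a fit of all 56 samples, 1799 with sample weights, 421 with DESeq2, 201 with quantile normalisation, 256 with the transgene as a covariate, 36 with median-of-ratios scaling and 6 with edgeR or voom. The causes were not tested. Other pseudocounts and filters kept it within 1.5 times. The 259 genes that differed between saline groups became 403 with DESeq2, 435 in the fit of all samples, 916 with sample weights and 155 with voom, and the 2397 between AAV groups became 4175 with sample weights. The 46 genes that changed from day 3 became 73 with quantile normalisation. Leaving out single libraries gave 4 to 959 genes for the difference of responses, 2518 to 5128 for the WT response (main count 4187, 2518 without WT AAV replicate 4), 6301 to 7761 for the HOMO mKO response (7192), 159 to 385 between saline groups, 1637 to 3913 between AAV groups (3913 without HOMO mKO AAV replicate 4), 65 to 367 for the change from day 7 and 11 to 238 from day 3, and a transgene difference of -0.94 to 0.47. Quantile normalisation moved the median difference of p53 targets to 0.30, of mitochondrially encoded genes to -0.32 and of fibre markers to 0.15. The other list medians moved by less than the spread between replicates under the scalings tried. Of 1943 values of 65 named genes under alternatives, 1240 kept their side of the threshold, 685 no longer passed it, 18 passed it only there and 0 called values reversed.

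Samples share only a replicate number. Deviations of same-numbered saline and AAV samples correlated at 0.04, 0.07, 0.03 and 0.08 in WT and 0.23, 0.16, 0.21 and 0.21 in HOMO mKO muscle, where every sample correlated best with its own number, a hint from the data and not the design. With the replicate number within genotype as a block, 44 genes were called, 29 of them among the 95, and with the number alone 15, 14 of them among the 95. All 95 kept their direction in both. The replicate block gave 72 genes for the change from day 7 and 21 from day 3.

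With 4 libraries a group, the 95% intervals of the difference of responses of Cxcl9, Adgre1, Cd8a and Myh3 were each over 2 log2 units wide.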
